A study of Mus musculus with 14 samples.

Results

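The 10 genes described here code for sensors of DNA and RNA in the cytosol and endosomes and for the proteins that relay or limit their signal: Ddx58, Ifih1, Dhx58, Zbp1, Tmem173, Mavs, Tlr3, Trex1, Irf3 and Tbk1. They were taken by gene name from 36413 gene names in the authors' log2 value table, and all 10 were found. All 10 also passed the filter on dim genes, which left 25896 gene names to be tested. Mouse breast cancer cells of the D2A1 line and mouse embryonic fibroblasts (MEFs) had been grown alone or together for 72 hours in serum-containing medium and, after co-culture, separated by cell sorting. The MEFs were Hsf1 +/+ (WT) or Hsf1 -/- (null), Hsf1 being the gene of the main heat shock transcription factor. There were 7 groups of 2 arrays: tumor cells grown by themselves ("alone"), beside WT MEFs or beside null MEFs, and MEFs of each genotype grown by themselves or beside tumor cells. Wherever tumor cells from co-culture were profiled, their MEF partners, WT and null alike, had been treated for 2 hours with 10 ug/ml mitomycin C, which cross-links DNA and stops division. Tumor cells alone had no such partner, so the presence of MEFs and that of mitomycin-treated cells cannot be told apart in tumor cells. The profiled MEFs had no mitomycin, so the tumor cells and MEFs profiled after co-culture came from separate co-cultures. The labels do not say whether replicates came from separate cultures or embryos, so the p-values reflect the spread of these samples only, which may be technical. For the same reason Hsf1 genotype cannot be told apart from other differences between the WT and null MEF stocks. This holds for the profiled MEFs and for the MEF partners of tumor cells.

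RIG-I (Ddx58) and MDA5 (Ifih1) are helicases that bind viral-type RNA in the cytosol and signal through Mavs on mitochondria, while Dhx58 (LGP2) modulates them without a signalling domain of its own. DNA in the cytosol is read by cGAS, whose product activates STING, the protein of Tmem173, and Tlr3 reads double-stranded RNA in endosomes. These routes meet at the kinase Tbk1 and the transcription factor Irf3, which switch on type I interferon; interferon then acts through factors such as Stat2 and Irf9 on a large set of genes that includes several of the sensors. Zbp1 binds nucleic acids in the Z conformation and can pass the signal to Ripk3, a kinase of programmed necrosis, and Trex1 is the exonuclease that removes DNA from the cytosol.

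In 1-colour arrays such as these the level of a gene is the brightness of its probes, here as the authors' log2 value, so that a difference of 1 is a doubling. Levels of different genes are not set against each other. Of 59305 spots, 53.1% to 63.4% were well above background on the 12 arrays whose scanner files were sound; the scanner files of tumor cells alone A and tumor cells with null MEFs A were faulty, with 32.1% and 36.8% of spots flagged as outliers. In the value table those arrays resembled the others, the lowest r between any pair of arrays being 0.935, so the table was used throughout. Only 2 arrays per group limited the precision. Hsf1 was 12.01 and 11.69 in WT MEFs alone against 10.07 and 9.97 in their null counterparts, a difference of 1.83 ± 0.12 (SE; limma adjusted p = 1.12e-06); which part of the gene the null allele lacks is not given. Signal typical of the partner was found in sorted cells; carry-over at sorting and expression by the sorted cells themselves cannot be told apart. Over 229 genes typical of the MEF partner, tumor cells showed a median of 7.34% and 7.24% of its level with WT MEFs (A and B) and 9.34% and 23.3% with null MEFs. The 229 genes were chosen for each partner separately, so they need not be the same genes. WT MEFs showed 39.1% and 41% of the tumor cell level over 65 tumor-typical genes, and null MEFs 10.3% and 10% over 70. Of 18 fibroblast markers the summed level was 49122 and 54864 in tumor cells alone, 121278 to 266566 in those from co-culture and 499690 to 1168493 in MEFs. In tumor cells alone 12 of the 18 were above background; Dcn, Lum, Thy1, Postn, Twist2 and Fap were not. Of 18 epithelial markers 12 were above background in tumor cells with null MEFs, 8 in those alone and 6 in those with the WT partner. The count needed every sound array to pass, and the first 2 of these groups had 1 sound array each. In MEFs it was 7 (WT alone), 12 (WT with tumor cells), 12 (null alone) and 14 (null with tumor cells), so it did not set tumor cells apart. Epcam was not above background in any group. In a sorted bulk sample a smaller number of cells that express a gene and less of its RNA per cell cannot be told apart.

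**Figure D1:**
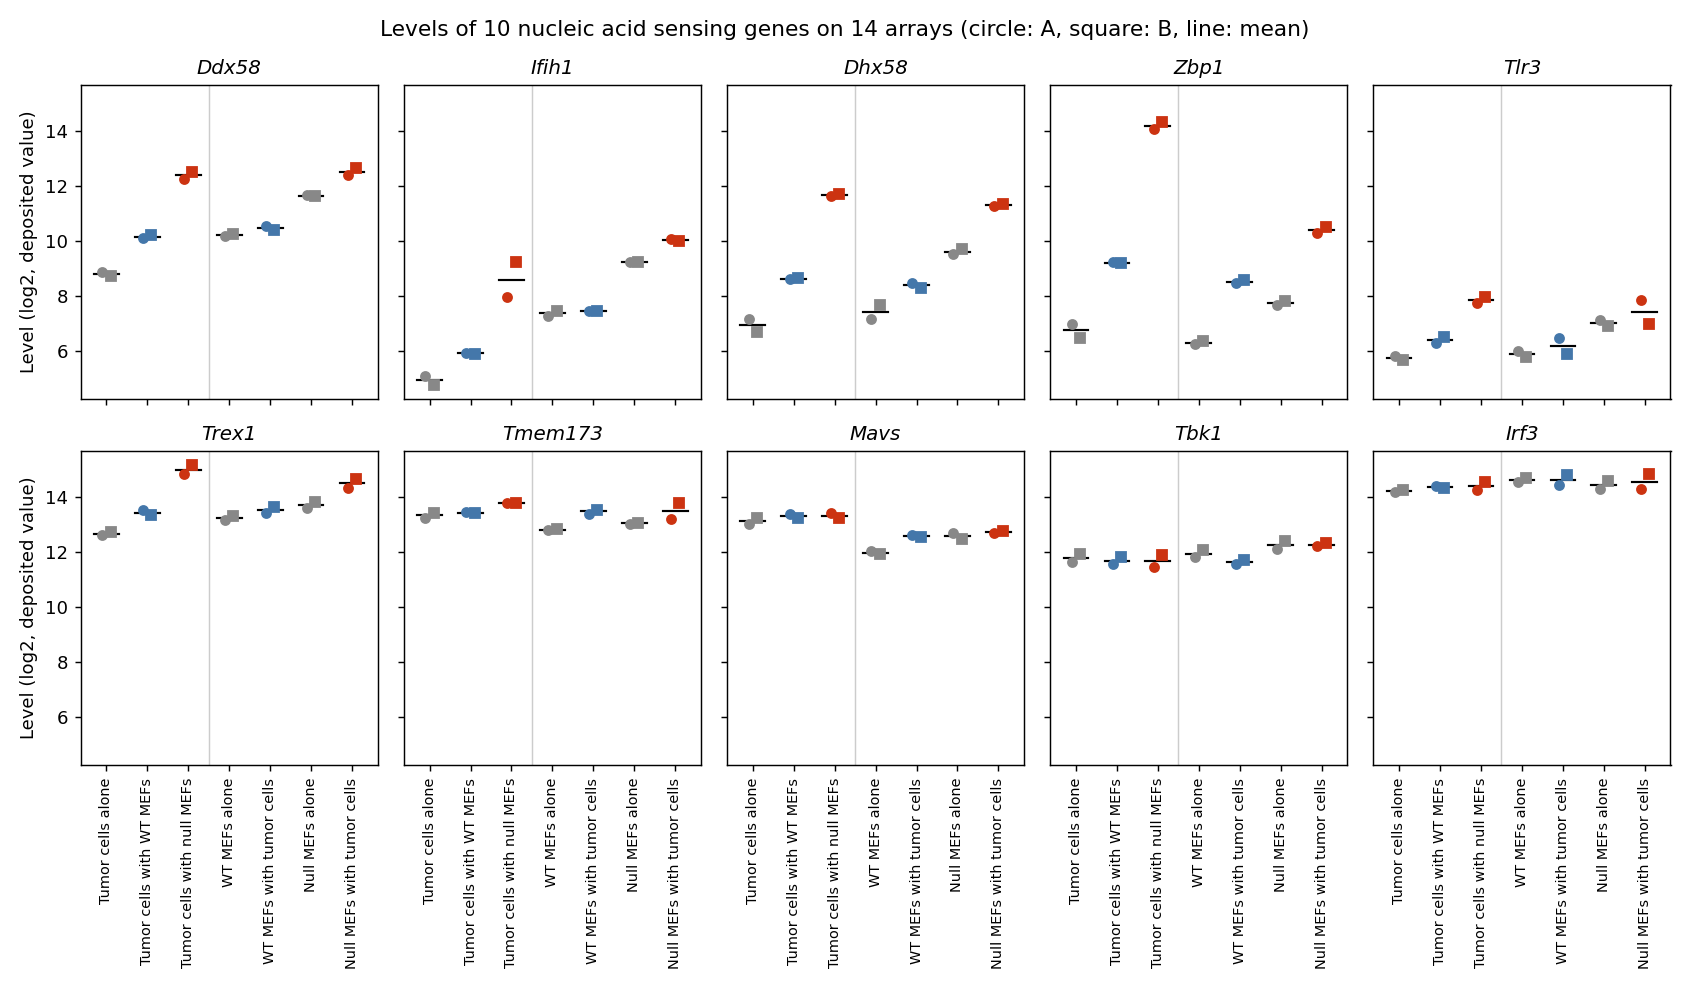
Log2 level of each of the 10 genes (one panel each) in the 7 groups, with replicate A as a circle, replicate B as a square and the mean as a line; grey marks cells grown alone, blue co-culture involving WT MEFs and red co-culture involving null MEFs. Zbp1 in tumor cells with null MEFs lies at 14.08 and 14.32, above all other groups, while Irf3 stays between 14.19 and 14.85 on all 14 arrays.

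The RNA helicases and Zbp1 were lowest or near lowest in tumor cells alone and rose in tumor cells grown with MEFs, further with null than with WT MEFs. With WT MEFs 4 of the 10 genes rose (Ddx58, Dhx58, Zbp1 and Trex1) and none fell. In that comparison, 7.04% of the genes tested were higher and 4.77% lower at an adjusted p under 0.05. With null MEFs 6 rose (the same 4 with Ifih1 and Tlr3) and none fell, where 10.1% of genes tested were higher and 9.6% lower. The median difference over the 10 genes was 0.71 with WT and 2.22 with null MEFs, beside -0.04 and -0.09 over all genes tested. Both comparisons share the arrays of tumor cells alone. Set directly against each other, tumor cells with WT MEFs were lower than those with null MEFs in the same 6 genes and higher in none, beside 5.38% of genes lower and 4.11% higher. Without both arrays whose scanner files were faulty, a fit added after the data were seen, 5, 6 and 6 genes were called; it leaves 1 array each of tumor cells alone and with null MEFs, taken to vary like the other groups.

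Ddx58, the RIG-I gene, is measured by 2 probes in chr4:40151133-40151952 of mm9 (minus strand), both assigned by the array file to transcript NM_172689. Its log2 level was 8.87 and 8.74 in tumor cells alone, 10.12 and 10.2 with WT MEFs, and 12.25 and 12.52 with null MEFs. The 3 groups did not overlap. The rise was 1.36 ± 0.12 with WT MEFs (2.56-fold, adjusted p = 8.31e-05) and 3.58 ± 0.12 with null MEFs (12-fold, adjusted p = 2.46e-08), and the groups with WT and null MEFs differed by -2.23 ± 0.12 (adjusted p = 2.27e-06). With the MEF share removed from each tumor cell array and the rest rescaled, the rises were 1.33 and 3.57.

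Ifih1, the MDA5 gene, was not well above background in tumor cells alone, at 5.07 and 4.77. It read 5.93 and 5.88 with WT MEFs, and 7.94 and 9.23 with null MEFs, where the replicates stood further apart than for any other of the 10 genes (SD 0.91). Both arrays with null MEFs were above all others of tumor cells, and the level there was at least 12.4-fold that in tumor cells alone (adjusted p = 1.6e-05). With WT MEFs it was at least 1.94-fold, which did not pass (adjusted p = 0.064). The array with the higher Ifih1 also had the larger MEF share, 23.3% against 9.34%, and null MEFs had more Ifih1 (10.06 and 9.98) than tumor cells; with that share removed the rise was 3.19 ± 0.36 (adjusted p = 0.000292). Its 2 probes lie at chr2:62434960-62435019 and chr2:62435507-62435566 of mm9, and were well above background on 5 and 11 of the 12 sound scanner arrays. On the 1 sound array of tumor cells alone neither was; with WT MEFs only the second was, and on the 1 sound array with null MEFs both were. Against that 1 array of tumor cells alone, the first probe differed by 0.10 with WT MEFs and by 3.60 with null MEFs. The second differed by 3.76 and 9.19. The probes thus disagreed on the rise with WT MEFs, where only the second was well above background. The sizes depend on the dim level in tumor cells alone.

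Dhx58, the LGP2 gene (probe at chr11:100556271-100556330, mm9), was 7.16 and 6.69 in tumor cells alone, 8.63 and 8.64 with WT MEFs, and 11.65 and 11.7 with null MEFs. No arrays overlapped between these groups. The rises were 1.7 ± 0.19 (adjusted p = 0.000244) and 4.74 ± 0.19 (26.8-fold, adjusted p = 6e-08), and between the partners the difference was -3.04 ± 0.19 (adjusted p = 3.64e-06). After removal of the MEF share the rises were 1.72 and 4.81.

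Zbp1 had the widest range of group means among the 10 genes. It read 6.99 and 6.48 in tumor cells alone, 9.22 and 9.19 with WT MEFs, and 14.08 and 14.32 with null MEFs, again without overlap. The rise was 2.47 ± 0.16 with WT MEFs (5.54-fold, adjusted p = 1.06e-05) and 7.47 ± 0.16 with null MEFs (177-fold, adjusted p = 1.5e-09). The level with WT minus that with null MEFs was -4.99 ± 0.16 (31.9-fold lower, adjusted p = 1.37e-07). The level with null MEFs was above that in the null MEFs themselves (10.28 and 10.5), and after removal of the MEF share the rise was 7.71. Its probes lie at chr2:173032258-173032317 (transcript NM_021394) and chr2:173039307-173039366 (NM_001139519) of mm9. On the 1 sound scanner array of tumor cells alone the first was not well above background and the second was; both were with either partner. Only 0.432% of the genes tested had a range of group means as wide as the 7.9 of Zbp1, the median range being 0.83.

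Tlr3, the endosomal receptor for double-stranded RNA (probe at chr8:46481729-46481788, mm9), was dim throughout and not well above background in tumor cells alone. It read 5.8 and 5.65 alone, 6.29 and 6.49 with WT MEFs, and 7.74 and 7.96 with null MEFs. It was at least 4.36-fold higher with null MEFs than alone (adjusted p = 0.000358) and the level with WT minus that with null MEFs was -1.46 ± 0.27 (adjusted p = 0.00678). With WT MEFs against alone the difference of 0.66 ± 0.27 did not pass (adjusted p = 0.146). On the 12 sound scanner arrays, with 1 array of tumor cells with null MEFs, the difference between partners was -2.23 and did not pass (adjusted p = 0.111).

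Trex1, the exonuclease (probe at chr9:108960454-108960513, mm9), was 12.62 and 12.72 alone, 13.53 and 13.34 with WT MEFs, and 14.83 and 15.16 with null MEFs. The rise with null MEFs was 2.32 ± 0.16 (5-fold, adjusted p = 3.35e-06), and WT minus null partner differed by -1.56 ± 0.16 (adjusted p = 0.000144). The rise of 0.76 ± 0.16 with WT MEFs (adjusted p = 0.011) was less firm: without tumor cells with WT MEFs A or without tumor cells alone A its adjusted p was 0.0768 or 0.0654, and with the MEF share removed 0.0539.

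The relay proteins moved little in tumor cells. Mavs, the adaptor of both helicases (probe at chr2:131073675-131073734, mm9), read 13.03 and 13.24 alone, 13.37 and 13.24 with WT MEFs, and 13.42 and 13.24 with null MEFs. The kinase Tbk1 was 11.63 and 11.93, 11.55 and 11.83, and 11.45 and 11.88 in the same order, and Irf3 was 14.19 and 14.25, 14.4 and 14.33, and 14.25 and 14.54. The arrays of Tbk1 overlapped between all 3 groups, and those of Mavs and Irf3 between the 2 co-culture groups. Tumor cells alone also overlapped with those with WT MEFs for Mavs, and with those with null MEFs for Irf3. No difference of these 3 genes among the tumor cell groups passed. With null MEFs minus alone, the 95% interval was -0.08 to 0.47 for Mavs, -0.26 to 0.61 for Irf3 and -0.51 to 0.28 for Tbk1. Tmem173, the STING gene, named Sting1 in the current RefSeq table, read 13.25 and 13.44 alone, 13.45 and 13.42 with WT MEFs, and 13.78 and 13.8 with null MEFs. Its difference with null MEFs was 0.44 ± 0.16 (adjusted p = 0.0753), and in the paired fit, with the slide as a replicate block, 0.44 ± 0.14 (adjusted p = 0.0412).

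**Figure D2:**
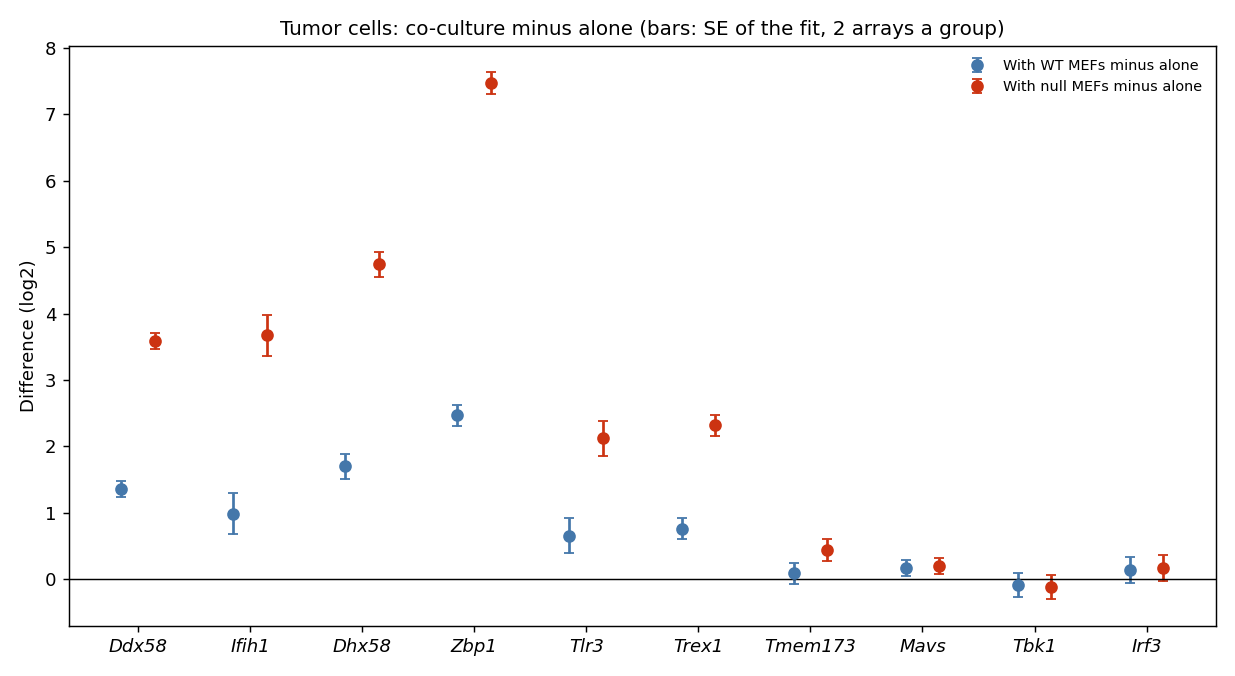
Log2 difference of each gene between tumor cells from co-culture and tumor cells alone, with WT MEFs in blue and null MEFs in red; points are fitted differences of 2 arrays against 2 and bars their SE. The 6 genes on the left rose by 2.12 to 7.47 with null MEFs, while the 4 on the right stayed between -0.12 and 0.44.

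The DNA before the start of these genes is shown for 3 genes that rose with null MEFs (Ddx58, Ifih1, Tlr3) and 2 that did not pass (Mavs, Tbk1), to set the measured pattern beside the sequence. RefSeq windows of GRCm38.p6, reaching 250 bases before the annotated start, were used for 7 of the 10 genes. Irf3 and Trex1 overlap another gene there and are not printed. Capitals mark matches on either strand to AANNGAAA, the core bound by interferon regulatory factors, a motif added after the sequences had been seen. Each run reads 5′ to 3′ on the gene's strand and ends at the base before the start.

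Ddx58, chr4:40239826-40240075, minus strand: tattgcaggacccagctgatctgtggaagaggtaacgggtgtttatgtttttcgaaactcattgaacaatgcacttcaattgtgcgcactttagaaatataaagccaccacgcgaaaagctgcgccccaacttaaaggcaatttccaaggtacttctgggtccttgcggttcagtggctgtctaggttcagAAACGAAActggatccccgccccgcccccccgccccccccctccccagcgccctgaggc

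Ifih1, chr2:62646256-62646505, minus strand: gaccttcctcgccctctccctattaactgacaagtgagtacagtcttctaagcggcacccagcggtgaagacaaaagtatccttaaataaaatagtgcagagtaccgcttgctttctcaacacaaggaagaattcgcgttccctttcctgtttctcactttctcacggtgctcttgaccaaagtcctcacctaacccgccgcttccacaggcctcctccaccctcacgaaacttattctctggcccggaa

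Tlr3, chr8:45410381-45410630, minus strand: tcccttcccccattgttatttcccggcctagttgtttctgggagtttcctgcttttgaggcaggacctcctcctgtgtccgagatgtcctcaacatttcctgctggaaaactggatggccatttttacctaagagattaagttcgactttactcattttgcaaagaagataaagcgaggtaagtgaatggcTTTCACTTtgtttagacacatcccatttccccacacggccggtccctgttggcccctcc

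Mavs, chr2:131233813-131234062, plus strand: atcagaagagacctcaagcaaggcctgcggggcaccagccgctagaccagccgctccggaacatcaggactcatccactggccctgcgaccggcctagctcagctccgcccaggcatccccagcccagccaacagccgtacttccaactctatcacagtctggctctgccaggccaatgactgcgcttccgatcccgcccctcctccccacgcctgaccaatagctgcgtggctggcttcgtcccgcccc

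Tbk1, chr10:121586795-121587044, minus strand: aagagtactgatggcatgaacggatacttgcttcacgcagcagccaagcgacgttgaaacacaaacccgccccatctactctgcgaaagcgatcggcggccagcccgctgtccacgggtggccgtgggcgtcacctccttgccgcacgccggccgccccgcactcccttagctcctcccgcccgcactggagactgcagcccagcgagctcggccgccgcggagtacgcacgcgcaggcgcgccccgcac

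In these runs Ddx58 and Tlr3 each held 1 match, both at bases -59 to -52 from the start, and the others none. The longer interferon-stimulated response element core, GAAANNGAAA, which contains AANNGAAA, was found in the 50 bases after the start of Ddx58 (bases 3 to 12, on the opposite strand) and of Ifih1 (bases 33 to 42). It is capitalised in these 30-base stretches, the first at chr4:40239804-40239833 and the second at chr2:62646206-62646235, both minus strand.

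Ddx58 element: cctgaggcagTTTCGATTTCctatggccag

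Ifih1 element: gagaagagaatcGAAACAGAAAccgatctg

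Over whole windows of 300 bases, 3.44% of 32851 RefSeq windows held GAAANNGAAA and 23.9% held AANNGAAA on either strand. Among the 7 genes with a window, GAAANNGAAA was found in Ddx58 and Ifih1, and AANNGAAA in Ddx58, Ifih1 and Tlr3; it was not found in the windows of Mavs, Irf3, Tbk1 and Trex1. The GAS core TTCNNNGAA (8.3% of windows) and the heat shock element GAANNTTCNNGAA (0.603%) were found in none of the 7. A match is a description of the letters and no match says only that these letters are not in the window.

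In MEFs grown alone, 7 of the 10 genes were lower in WT than in null MEFs (Ddx58, Ifih1, Dhx58, Zbp1, Mavs, Tlr3 and Trex1) and none was higher. This comparison had a wide background, 17.9% of genes tested being lower and 15.9% higher in WT MEFs. Genotype and other differences between the MEF stocks cannot be told apart in it. The median over the 10 genes was -0.87, beside -0.03 over all genes tested. Dhx58 read 7.16 and 7.67 in WT and 9.51 and 9.7 in null MEFs, a difference of -2.2 ± 0.19 (adjusted p = 6.15e-06). Ifih1 read 7.28 and 7.43 against 9.23 and 9.22 (-1.87 ± 0.31, adjusted p = 0.000731), and Ddx58 10.19 and 10.25 against 11.67 and 11.62 (-1.42 ± 0.12, adjusted p = 8.15e-06). Neither gene's arrays overlapped between genotypes. Zbp1 read 6.25 and 6.36 against 7.66 and 7.82 (-1.44 ± 0.16, adjusted p = 5.81e-05), and Tlr3 6 and 5.78 against 7.12 and 6.9 (-1.12 ± 0.27, adjusted p = 0.00792), a call lost without WT MEFs alone B (adjusted p = 0.0581) or null MEFs alone A (adjusted p = 0.0566). Mavs, at 12.03 and 11.93 against 12.71 and 12.48, differed by -0.62 ± 0.12 (adjusted p = 0.00259). Trex1, at 13.18 and 13.31 against 13.59 and 13.83, differed by -0.46 ± 0.16 with an adjusted p of 0.0449, and its call was lost in each fit that left out 1 of these 4 arrays (adjusted p = 0.0553 to 0.253). Tbk1 differed by -0.32 ± 0.18 (adjusted p = 0.22) and by -0.32 ± 0.1 in the paired fit with the replicate block (adjusted p = 0.0312). Tmem173 and Irf3 did not pass, with 95% intervals of -0.58 to 0.12 and -0.26 to 0.61.

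After co-culture with tumor cells, again 7 of the 10 genes were lower in WT than in null MEFs and none higher, beside 14.7% of genes lower and 14.8% higher. Ddx58, Ifih1, Dhx58, Tlr3 and Trex1 kept their place, with differences from -0.97 (Trex1) to -2.92 ± 0.19 (Dhx58, adjusted p = 1.96e-06). Tbk1 joined them at -0.64 ± 0.18 (adjusted p = 0.021), from 11.57 and 11.71 in WT and 12.22 and 12.33 in null MEFs, but did not pass in fits that left out any 1 of these 4 arrays (adjusted p = 0.0511 to 0.122). Tlr3 lost its call without WT MEFs with tumor cells B (-0.96, adjusted p = 0.0567). Zbp1, at 8.46 and 8.56 against 10.28 and 10.5, differed by -1.88 ± 0.16 (limma adjusted p = 1.4e-05). This direction turned when the tumor cell share was removed (2.96 ± 0.19). Zbp1 in null MEFs was then set to the floor of measured levels, so the turned value depends on that floor. Mavs did not pass (-0.15 ± 0.12, adjusted p = 0.429).

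**Figure D3:**
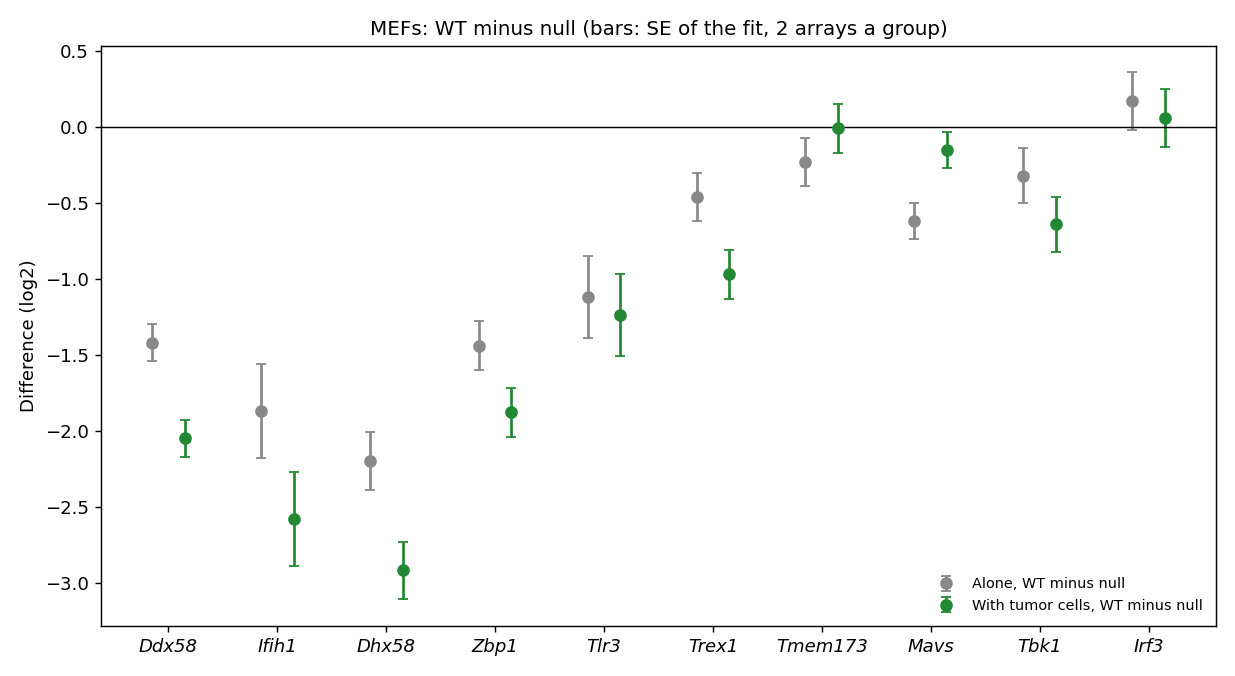
Log2 difference WT minus null MEFs for each gene, grown alone (grey) or sorted from co-culture (green); points are fitted differences of 2 arrays against 2 and bars their SE. Dhx58 lies lowest, at -2.2 alone and -2.92 with tumor cells, while Tmem173 and Irf3 lie between -0.23 and 0.17.

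The MEFs were also compared with and without tumor cells. In WT MEFs 4 rose with tumor cells (Dhx58, Zbp1, Tmem173 and Mavs) and none fell, beside 6.31% of genes higher and 4.2% lower. In null MEFs 4 rose (Ddx58, Dhx58, Zbp1 and Trex1) and none fell, beside 2.81% higher and 0.332% lower. The 2 responses differed in none of the 10 genes by limma at an adjusted p under 0.05, beside 1.96% of genes with a higher and 1.07% with a lower response in WT MEFs. The lowest adjusted p was 0.107, for Ddx58 (-0.63 ± 0.18), and its 95% interval, -1.03 to -0.24, did not include 0. Over all 10 genes the median difference of responses was -0.38.

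Zbp1 rose by 2.21 ± 0.16 in WT MEFs, from 6.25 and 6.36 to 8.46 and 8.56 (adjusted p = 7.32e-06), and by 2.65 ± 0.16 in null MEFs, from 7.66 and 7.82 to 10.28 and 10.5 (adjusted p = 3.69e-06). These rises stand beside the tumor cell share of the same arrays. In null MEFs the added Zbp1 equalled 5.47% and 6.56% of the level in tumor cells sorted from the separate co-culture with null MEFs. Tumor-typical genes were at 10.3% and 10%, their 10th to 90th percentile reaching from 2.83% to 31.4% over both arrays. With that share removed, Zbp1 in null MEFs fell to the floor of measured levels and its difference turned to -2.96. In WT MEFs the added Zbp1 equalled 46.4% and 50.7% of the tumor cell level, beside a share of 39.1% and 41%, and with the share removed a rise of 1.45 ± 0.19 remained (adjusted p = 0.000877).

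Dhx58 rose by 0.97 ± 0.19 in WT MEFs, from 7.16 and 7.67 to 8.48 and 8.29 (adjusted p = 0.00719), and by 1.7 ± 0.19 in null MEFs, from 9.51 and 9.7 to 11.26 and 11.35 (adjusted p = 0.000306). After removal of the tumor cell share these were 0.76 ± 0.21 (adjusted p = 0.0389) and 1.65 ± 0.21 (adjusted p = 0.00248). The rise in WT MEFs did not pass without WT MEFs with tumor cells A (adjusted p = 0.0722) or without WT MEFs alone A (adjusted p = 0.0645). Ddx58 rose in null MEFs by 0.88 ± 0.12, from 11.67 and 11.62 to 12.4 and 12.64 (adjusted p = 0.00203), and by 0.89 with the share removed; in WT MEFs the difference was 0.24 ± 0.12 (adjusted p = 0.289). Trex1 rose in null MEFs by 0.8 ± 0.16 (adjusted p = 0.0188), which did not pass when array B from co-culture (adjusted p = 0.134) or array A of null MEFs alone (0.177) was left out, or with the share removed (0.164). Ifih1 differed by 0.8 ± 0.31 in null MEFs (adjusted p = 0.32), and by 0.8 ± 0.1 (adjusted p = 0.00178) in the fit without tumor cells alone A and tumor cells with null MEFs A.

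In WT MEFs Tmem173 rose by 0.66 ± 0.16, from 12.79 and 12.84 to 13.4 and 13.55 (adjusted p = 0.0233), and Mavs by 0.6 ± 0.12, from 12.03 and 11.93 to 12.62 and 12.54 (adjusted p = 0.0103). Both calls were fragile. Tmem173 passed in no fit that left out 1 of these 4 arrays (adjusted p = 0.079 to 0.165), though its difference was 0.69 with the tumor cell share removed. Mavs, which was 13.37 and 13.24 in tumor cells sorted from co-culture with WT MEFs, turned to -0.24 ± 0.15 (limma adjusted p = 0.364) with the share removed. Its call was lost without WT MEFs with tumor cells A (0.56) or B (0.64) and without WT MEFs alone B (0.55). The count in WT MEFs was 1 of 10 without WT MEFs with tumor cells A and 2 of 10 without WT MEFs with tumor cells B, WT MEFs alone A or WT MEFs alone B. The summed level of 18 epithelial markers was 1542 and 1688 in WT MEFs alone and 74476 and 85765 after co-culture. In null MEFs it was 4734 and 5738 against 28597 and 42013. Such a sum weighs bright genes most, and the list did not move as a whole. Of 14 tested, 4 were higher and 2 lower in WT MEFs (median -0.07), beside 6.31% and 4.2% of all genes tested. In null MEFs 1 was higher and 0 lower (median -0.01), beside 2.81% and 0.332%.

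**Figure D4:**
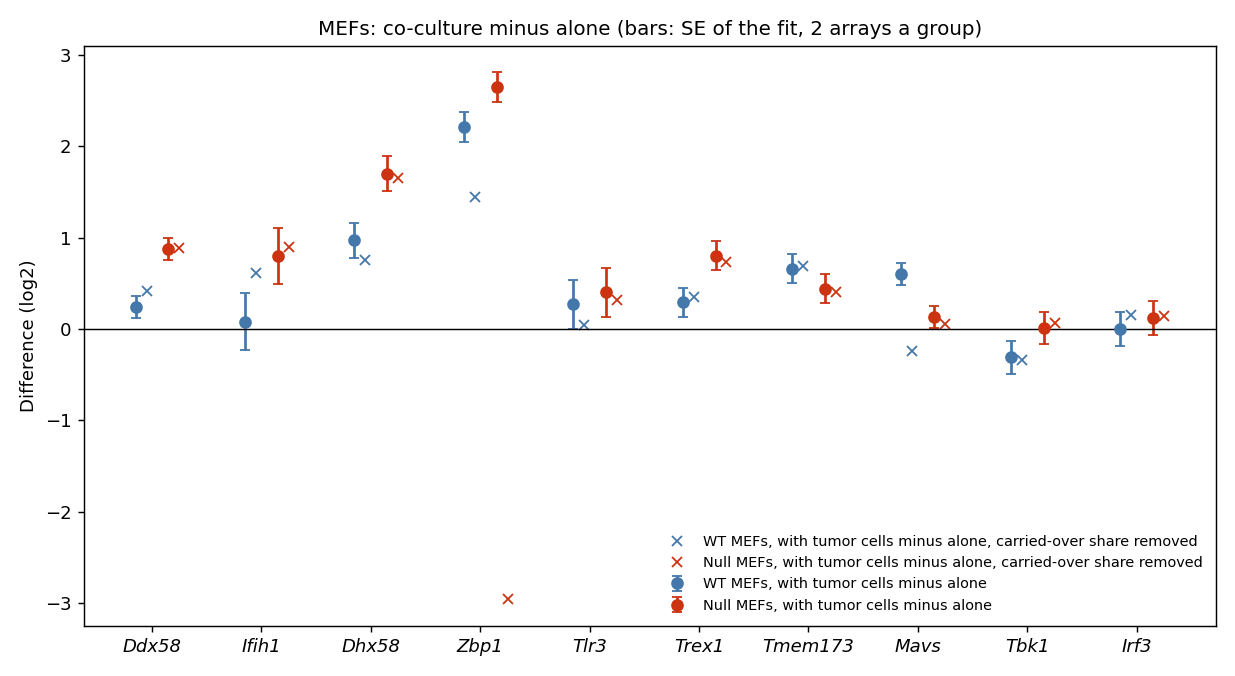
Log2 difference of each gene between MEFs sorted from co-culture and MEFs alone, WT in blue and null in red; circles are fitted differences of 2 arrays against 2 with their SE, and crosses the same after the tumor cell share was removed. Zbp1 in null MEFs moves from 2.65 to -2.96, where its level from co-culture was set to the floor of measured levels. Mavs in WT MEFs moves from 0.6 to -0.24, whereas Dhx58 in null MEFs stays near 1.7.

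Between cell types, Mavs was higher in tumor cells than in MEFs in all 4 comparisons, by 0.54 to 1.16. Grown alone, tumor cells exceeded WT MEFs in 3 of the 10 genes (Zbp1, Tmem173 and Mavs) and were below them in 4 (Ddx58, Ifih1, Dhx58 and Trex1), where 27.8% of genes tested were higher and 23.6% lower in tumor cells. The difference of Dhx58 there was -0.48 ± 0.19 (limma adjusted p = 0.0497), with arrays that overlapped. That of Zbp1 was 0.44 ± 0.16 (adjusted p = 0.0475). On the 1 sound scanner array of tumor cells alone 1 of its probes was brighter than in WT MEFs alone and the other, not well above background there, was dimmer. Against null MEFs alone they were higher in 1 and lower in 7 (27.3% and 25.4% of genes tested). After co-culture with WT MEFs they were higher in 2 (Zbp1 and Mavs) and lower in 1 (Ifih1), beside 16.9% and 14.8%. With null MEFs they were higher in 3 (Zbp1, Mavs and Trex1) and lower in 2 (Ifih1 and Tbk1), beside 20.6% and 22.2%. Ddx58 in tumor cells minus null MEFs was -2.84 ± 0.12 when each was grown alone (limma adjusted p = 2.65e-08). After separate co-cultures, with mitomycin-treated MEFs only where tumor cells were profiled, it was -0.13 ± 0.12 (adjusted p = 0.426, 95% interval -0.41 to 0.14). For Zbp1 the same differences were -1 ± 0.16 (adjusted p = 0.000432) and 3.81 ± 0.16 (14-fold, adjusted p = 1.75e-07).

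Across the 7 groups the order of levels was not the same for each gene. Ddx58 was highest in null MEFs with tumor cells (mean 12.52) and tumor cells with null MEFs (12.39), whose arrays overlapped, then null MEFs alone (11.64), WT MEFs with tumor cells (10.47), WT MEFs alone (10.22), tumor cells with WT MEFs (10.16, overlapping the WT MEFs alone) and tumor cells alone (8.8). Dhx58, Zbp1, Tlr3 and Trex1 were highest in tumor cells with null MEFs, with null MEFs from co-culture next; for Tlr3 these 2 groups overlapped. Ifih1 ranked null MEFs with tumor cells first (10.02), and null MEFs alone (9.23) overlapped with tumor cells with null MEFs (8.58). Over the 14 arrays, which share 7 conditions and 2 slides, r among the 6 genes that rose with null MEFs lay between 0.44 (Ifih1 and Zbp1) and 0.96, with a median of 0.88 over 15 pairs. Among Tmem173, Mavs, Irf3 and Tbk1 it lay between -0.56 and 0.74. Both sets were formed by the rise on some of these same arrays, so the contrast in r follows in part from that choice.

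The genes whose levels over the 14 arrays were most like each member were named by the highest r among the genes tested, as a description. For Ddx58 these were Psmb8 (r = 0.992), a subunit of the immunoproteasome, Lgals3bp (0.992) and Tap2 (0.99), a peptide transporter of antigen presentation. For Dhx58 they were Oas2 (0.994), an enzyme that makes the activator of RNase L, Igtp (0.988) and Usp18 (0.988). For Trex1 they were Irgm1 (0.988), Irf7 (0.984) and Ifitm3 (0.983), and for Tlr3 Parp12 (0.96), Phf11 (0.957) and Oas1f (0.957). The closest named gene to Zbp1 was AI607873 (0.975). For Ifih1, Ano1 (0.979) and Crabp2 (0.978) came first. Mavs was closest to Cluap1 (0.975), Tbk1 to Enah (0.972), Tmem173 to Lcn2 (0.932) and Irf3 to Tex264 (0.909).

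Partners and regulators of RNA sensing were described by 20 genes, of which 19 were tested. With null MEFs 5 of 19 rose in tumor cells and 1 fell, with a median of 0.01, where 10.1% of all genes tested rose and 9.6% fell. With WT MEFs 2 rose and 1 fell, beside 7.04% and 4.77% of all genes. Eif2ak2, the kinase PKR, read 9.69 and 10.02 in tumor cells alone, 10.53 and 10.74 with WT MEFs and 12.57 and 13 with null MEFs, and rose by 0.78 ± 0.19 (adjusted p = 0.0225) and 2.93 ± 0.19 (adjusted p = 2.01e-06). Trim25, the ubiquitin ligase that activates RIG-I, rose by 1.9 ± 0.16 with null MEFs (adjusted p = 1.78e-05), from 14.11 and 14.1 to 15.83 and 16.19. In WT MEFs with tumor cells 0 of 19 passed by limma; in null MEFs Eif2ak2 (1 ± 0.19, adjusted p = 0.0128) and Trim25 (0.8 ± 0.16, adjusted p = 0.0198) rose.

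Of 24 partners of DNA sensing 22 were tested. With null MEFs 10 of 22 rose in tumor cells and 2 fell, with a median of 0.14, beside 10.1% and 9.6% of all genes tested; with WT MEFs 6 rose and 3 fell, beside 7.04% and 4.77%. In WT MEFs alone against null MEFs alone 10 of 22 were lower and 2 higher, beside 17.9% and 15.9% of all genes. Ifi203, of the interferon-inducible p200 family, went from 9.96 and 9.9 in tumor cells alone to 11.16 and 11.21 with WT MEFs and 12.75 and 12.87 with null MEFs (2.88 ± 0.09, adjusted p = 1.78e-08). Mnda, not above background in tumor cells alone (4.86 and 5.15) or with WT MEFs (5.64 and 5.54), read 9.77 and 10.23 with null MEFs. In null MEFs from co-culture it was 6.68 and 6.47. The sensor cGAS, on the array as E330016A19Rik, read 9.15 and 9.15 in tumor cells alone, 8.95 and 8.81 with WT MEFs, and 9.33 and 8.92 with null MEFs, so the group with null MEFs spanned the level alone. Ripk3, the partner of Zbp1, was not above background in tumor cells alone (4.85 and 5.19) and read 9.92 and 9.6 with WT MEFs and 10.91 and 12.05 with null MEFs. It was 12.72 to 13.63 in MEFs, and its added level in tumor cells from co-culture equalled 13.1% and 10.4% of the WT partner and 26.9% and 60% of the null partner, beside MEF-typical shares of 7.34%, 7.24%, 9.34% and 23.3%. The part of carried-over RNA in these values was not tested.

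Of 18 endosomal sensing genes tested, 4 rose in tumor cells with null MEFs and 1 with WT MEFs, and none fell, beside 10.1% and 7.04% of all genes that rose. Unc93b1, which carries nucleic acid receptors to endosomes, rose by 0.93 ± 0.2 with WT (adjusted p = 0.0135) and 1.29 ± 0.2 with null MEFs (adjusted p = 0.00152). In MEFs Cd14, a co-receptor, read 7.89 and 8.28 in WT MEFs alone and 11.93 and 12.08 with tumor cells; the added level equalled 41.2% and 46.1% of the tumor cell level, beside the share of 39.1% and 41%. Of 26 signalling genes 5 rose and 1 fell in tumor cells with null MEFs, and 4 rose and 3 fell with WT MEFs, beside 10.1% and 9.6%, and 7.04% and 4.77%, of all genes tested. Irf7, the interferon-inducible counterpart of Irf3, read 5.45 and 6.24 in tumor cells alone, 8.66 and 8.63 with WT MEFs, and 14.1 and 14.64 with null MEFs. It rose by 2.8 ± 0.29 (adjusted p = 0.000162) and 8.52 ± 0.29 (adjusted p = 2.14e-08), whereas Irf3 differed by 0.14 and 0.17 in the same comparisons. In MEFs alone Irf7 was 7.2 and 7.52 in WT and 10.42 and 10.51 in null cells (-3.11 ± 0.29, adjusted p = 1.11e-05).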

How the data were processed

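RNA of 14 samples was hybridised to 1-colour Agilent mouse arrays (design 028005). The deposited scanner intensities name Feature Extraction 10.1.1.1 in their headers, whereas the submitters' processing notes name version 9.1. The main values are the log2 values that the authors deposited in the series' value table; their scaling is not given in the sources used here, so their centring is unknown (array medians 6.339 to 6.401). They followed the mean of a gene's probes (r = 0.982) more than the listed probe (r = 0.888). Groups came from the sample labels. Differences were fitted with limma 3.58.1 (lmFit, eBayes; R 4.3.3) over all 7 groups, with 7 residual degrees of freedom and Benjamini-Hochberg adjustment over 25896 gene names; the script was tested on simulated data. Gene names were kept if a probe was well above background on every sound array of at least 1 group. Genes dim in other groups were therefore tested, such as Ifih1 and Tlr3 in tumor cells alone.

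The file headers place all A arrays on 1 slide and all B arrays on the other, so the replicate letter pairs samples by slide; deviations of same-lettered arrays correlated over 21 pairs of groups with r from 0.092 to 0.599 (median 0.298, 20 over 0.1). The share of the partner's signal was the added level over the partner's level. Its median was taken over genes at least 32-fold higher in the partner than in the recipient alone. The partner's level was that of sorted cells of its type from the separate co-cultures, which differed in mitomycin treatment. Removal of the share was followed by rescaling in an alternative chosen after seeing the data. Named were all 10 genes, the 3 tested genes of each pathway list with the smallest p, and the 3 gene names most like each gene. A gene named for 1 comparison was given its values in others, and E330016A19Rik (cGAS), Cd14 in WT MEFs and Ifnb1 were singled out after their values were seen. The genes and lists were chosen with earlier results of these data known. Alternatives covered scaling, scanner intensities, filters, the slide as a block and leaving out each array.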

Additional observations from a re-analysis of the deposited data

Results flagged for a closer look

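For 6 of the 10 genes the tumor cells' change against tumor cells alone differed between the partners, by the limma test of the difference itself. The change with WT MEFs minus that with null MEFs was -4.99 ± 0.16 on the log2 scale for Zbp1 (adjusted p = 1.37e-07), -3.04 ± 0.19 for Dhx58 (adjusted p = 3.64e-06) and -2.23 ± 0.12 for Ddx58 (adjusted p = 2.27e-06). It was -2.68 ± 0.31 for Ifih1 (adjusted p = 0.000328), -1.56 ± 0.16 for Trex1 (adjusted p = 0.000144) and -1.46 ± 0.27 for Tlr3 (adjusted p = 0.00678). From the intensities of the 12 sound scanner arrays Ifih1 (-4.46) and Tlr3 (-2.23) did not pass. The Ifih1 value there averages 2 probes, which gave -3.50 and -5.43 when fitted 1 at a time. Both changes use the same arrays of tumor cells alone, so each value equals the direct difference between the co-culture groups. Both partners had been treated with mitomycin C. The arrays with null MEFs also had the larger median MEF share (9.34% and 23.3% against 7.34% and 7.24%), over genes chosen for each partner separately. On the A arrays the 10th to 90th percentiles overlapped, at 3.12% to 25.6% with null and 4.61% to 12.6% with WT MEFs. With the share removed and the rest rescaled the values were -5.20, -3.09, -2.24, -2.43, -1.66 and -1.52 in the same order of genes.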

How the results depend on the processing

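Of 80 differences (10 genes in 8 comparisons) 38 passed, of which 8 kept their call under all alternatives run and 30 lost it under at least 1. A further 14 passed under at least 1. Some of the 30 were lost only with all 14 scanner files, of which 2 were faulty. Among these were Ddx58 in tumor cells with WT MEFs, and Tlr3 and Trex1 in tumor cells with null MEFs. Others were lost under several alternatives, such as Trex1 in tumor cells with WT MEFs. Removing the partner's share without rescaling moved the median of all genes by up to -0.81 and turned the response of WT MEFs to -0.32 for Ddx58, -0.05 for Tmem173, -0.98 for Mavs and -0.59 for Irf3, that of null MEFs to -2.96 for Zbp1, WT against null MEFs with tumor cells to 2.22 for Zbp1, and the difference of responses to 3.67 for Zbp1 and -0.87 for Mavs, with 6 genes called there. With rescaling, Mavs in WT MEFs was -0.24 and Zbp1 was -2.96 in null MEFs, 2.96 between genotypes with tumor cells and 4.40 in the difference of responses, where 1 gene was called. With or without rescaling, Zbp1 in null MEFs from co-culture was set to the floor of measured levels, so these values of Zbp1 depend on that floor. The 12 sound arrays include 1 of tumor cells alone and 1 with null MEFs, each taken to vary like the other groups. Their scanner intensities gave 2 genes in the WT MEF response and 4 between genotypes with tumor cells. All 14 scanner files, of which 2 were faulty, gave 1 gene in tumor cells with the WT partner, 3 with the null partner, 2 between these, 0 in each MEF response, and 1 between genotypes both alone and with tumor cells. Fitting each cell type alone, or the 12 arrays of the value table (chosen after seeing the data), gave 1 gene in the difference of responses (Ifih1). In the paired fits with the replicate block the counts were 4, 7, 6, 4, 4, 8, 7 and 0 against 4, 6, 6, 4, 4, 7, 7 and 0, and no call other than those of Tmem173 and Tbk1 given above changed. Leaving out each array gave 3 to 4 genes in tumor cells with the WT partner, 6 with the null partner, 6 between these, 1 to 2 in the WT and 3 to 5 in the null MEF response, 5 to 6 between genotypes alone, 5 to 6 with tumor cells, and 0 in the difference of responses; the lone array was taken to vary like the other groups. Ifih1 and Tlr3 were not well above background in tumor cells alone. On the sound scanner arrays the difference of Ifih1 with null MEFs was 6.39 ± 1.84 and did not pass. Other calls lost there included Ifih1 (-4.46) and Tlr3 (-2.23) in tumor cells between the partners, and Trex1 in tumor cells with WT MEFs (0.50). Between MEF genotypes that of Ifih1 was lost both alone (-3.02) and with tumor cells (-3.41). These Ifih1 values average 2 probes, and the brighter had no value on WT MEFs alone A and null MEFs alone A. There the mean was that of the dimmer probe. Fitted 1 at a time, the dimmer and brighter probes differed by 3.60 and 9.19 in tumor cells with null MEFs against alone. Between MEF genotypes alone they differed by -3.14 and -2.17, and with tumor cells by -3.98 and -2.84. The cause of the lost calls was not tested.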

Other observations

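Of 22 interferon and interferon receptor genes tested, 6 rose in tumor cells with null MEFs and 2 with WT MEFs, and none fell, where 10.1% and 7.04% of all genes tested rose. Stat2 read 9.91 and 9.88 in tumor cells alone, 11.26 and 11.17 with WT MEFs, and 13.77 and 14.26 with null MEFs, a rise of 4.12 ± 0.15 with null MEFs (limma adjusted p = 3e-08). Irf9 rose by 1.72 ± 0.12 with WT and 3.83 ± 0.12 with null MEFs (adjusted p = 1.73e-05 and 1.8e-08). Ifnb1, the interferon beta gene, was not well above background in tumor cells alone or with WT MEFs, and read 6.64 and 7.38 with null MEFs and 6.16 and 6.22 in null MEFs with tumor cells. Il28ra, a receptor chain for interferon lambda, read 11.43 and 11.42 in null MEFs alone and was not well above background in WT MEFs alone (4.89 and 5.13).

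Of 17 genes of nucleic acid degradation and editing tested, 3 rose and 1 fell in tumor cells with null MEFs, and 0 rose and 1 fell with WT MEFs, beside 10.1% and 9.6%, and 7.04% and 4.77%, of all genes tested. Adar, the RNA editing enzyme, rose by 2 ± 0.13 with null MEFs (adjusted p = 2.71e-06), from 11.72 and 11.94 to 13.72 and 13.95, and differed by -1.15 ± 0.13 between WT and null MEFs alone (WT minus null, adjusted p = 6.24e-05). Isg20, an interferon-induced RNA exonuclease, rose by 1.45 ± 0.13 in tumor cells with null MEFs (adjusted p = 3.48e-05). Samhd1, which degrades nucleotides, rose by 0.66 ± 0.1 there (adjusted p = 0.00101) and was 0.84 ± 0.1 higher in WT than in null MEFs alone (adjusted p = 6.31e-05).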
